A study of Mus musculus with 2 samples.

Results

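The genes described here encode the nuclear part of the mitochondrial respiratory chain and ATP synthase. They were chosen by name alone: every gene in either library whose symbol begins with Nduf plus a, b, c, s or v, with Uqcr, with Cox and a digit between 4 and 8, or with Atp5, the genes Sdha to Sdhd, and Cycs and Cyc1, leaving out names that contain -ps. The rule found 93 genes among 18486 annotated genes with at least 1 read, and 92 of the 93 were detected in each library. By known role they are 36 subunits of complex I, 8 complex I assembly factors, 4 subunits of complex II, 9 of complex III, 18 of complex IV including paralogues and Ndufa4, 17 genes of ATP synthase, and Cycs, which encodes the mobile carrier cytochrome c.

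The tissue was the left cerebral cortex of female B6CASTF1/J mice at 14 days of age, hybrids whose parents are the strains C57BL/6J and CAST/EiJ. Both libraries came from this 1 untreated group, numbered as biological replicates 1 and 2, and the labels name no genotype change or agent; the biosample text of replicate 1 can be read as several females, and the tables do not separate the parental alleles. Total RNA was read as long cDNA reads, so each read stands for 1 cDNA and can show which exons were joined. Nothing in the labels sets 1 library against the other, so the comparisons below are between members and between replicates, as replicate 1 over replicate 2.

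Complexes I and II pass electrons from NADH and succinate to ubiquinone, complex III passes them to cytochrome c, and complex IV passes them to oxygen. Complexes I, III and IV move protons across the inner membrane, and ATP synthase uses the returning protons to make ATP. Neurons depend heavily on this route for the ion pumping that follows synaptic activity, and several subunits of complex IV exist as tissue-specific forms encoded by separate genes.

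The libraries held 1072344 mouse reads in replicate 1 and 753520 in replicate 2, of which the members took 27091 and 17634, or 2.53% and 2.34%. Levels are given as RPM, the reads of a gene scaled to 1000000 mouse reads, so 1 read was worth 0.933 RPM in replicate 1 and 1.33 RPM in replicate 2. All 7 listed markers of cortical neurons had reads in both libraries. The oligodendrocyte marker Mbp was at 3673 RPM in replicate 1 and 2142 RPM in replicate 2. The choroid plexus marker Ttr was at 25.2 RPM in replicate 1 and 256 RPM in replicate 2; the other marker, Kl, had 0 reads. In the exact binomial test described below, Mbp was higher and Ttr lower in replicate 1, and the part of these cell types in any difference between the replicates was not tested. In bulk tissue, fewer cells of a type and less RNA per cell cannot be told apart.

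The members were abundant as a class. Their median level was 178 RPM, against 10.8 RPM over all genes with a read, and 72 of the 93 were above 100 RPM while 6 were under 10 RPM. Across the 91 members with a read in both libraries, log2 RPM in replicate 1 and replicate 2 had a Pearson r of 0.981 and a Spearman rho of 0.991, a description over genes that share the same 2 libraries. The 95% counting intervals of the replicates overlapped for 91 of the 93 members, all but Atp5a1 and Cox6b1. The first 6 members, Atp5b, Cox4i1, Atp5a1, Ndufa4, Uqcrc1 and Cox8a, held 31.95% of member reads in replicate 1 and 31.93% in replicate 2.

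**Figure D1:**
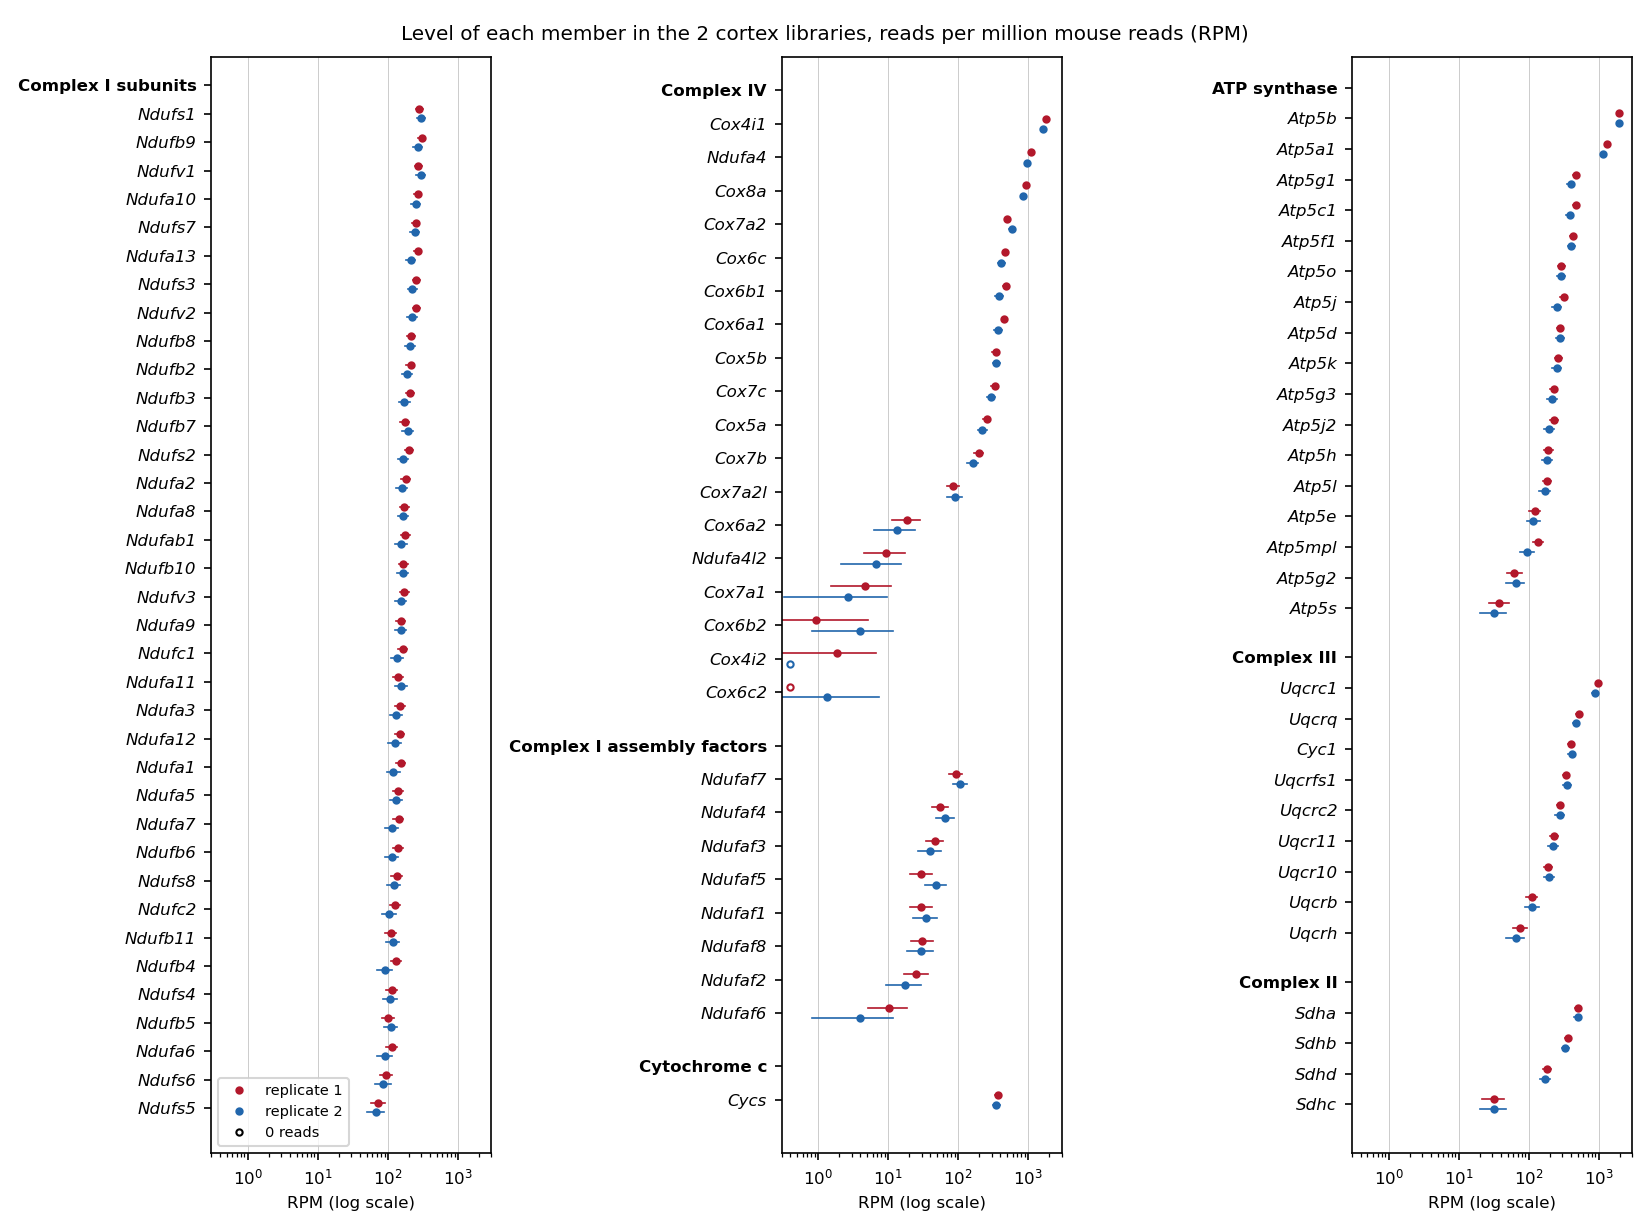
Level of each member in RPM on a log axis, by complex, with replicate 1 in red and replicate 2 in blue. Lines are exact 95% Poisson intervals of the counts and open circles mark 0 reads. Complex I subunits span a narrow band from 70.2 to 289 RPM, while complex IV runs from 1718 RPM for Cox4i1 to paralogues with a few reads.

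ATP synthase was led by the catalytic head. Atp5b, the catalytic beta subunit (chr10:128083273-128090391, plus strand, mm10), had 2091 reads in replicate 1 and 1475 in replicate 2, or 1950 and 1957 RPM, and ranked 19 among all genes. Atp5a1, the alpha subunit, had 1325 and 1155 RPM, below Atp5b in both libraries. The replicates of Atp5b differed by less than their counting intervals, while those of Atp5a1 did not overlap.

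The rest of the head was lower than alpha and beta. Atp5c1, the gamma subunit of the central stalk, had 471 RPM in replicate 1 and 385 RPM in replicate 2. Atp5d and Atp5e, the delta and epsilon subunits, averaged 283 ± 1.68 and 119 ± 3.80 RPM (SD, n = 2). Although alpha and beta stand in equal numbers in the assembled enzyme, Atp5b had 1.47 times the reads of Atp5a1 in replicate 1 and 1.70 times in replicate 2. Per kb of model length its lead was 2.52-fold. On models with a complete coding sequence, Atp5b had 1497 reads in replicate 1 and 1017 in replicate 2. Atp5a1 had 1355 and 817 such reads, so the lead of Atp5b was smaller on this count.

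The peripheral stalk genes Atp5f1, Atp5o, Atp5j and Atp5h averaged between 188 and 420 RPM, within the range of the other head subunits. The lowest of the ATP synthase genes was Atp5s, known as coupling factor B, with 38.2 RPM in replicate 1 and 31.9 RPM in replicate 2. Atpif1, the protein inhibitor of ATP synthase and no member by name, had 296 RPM in replicate 1 and 295 RPM in replicate 2.

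The c subunit, which forms the proton-driven ring, comes from 3 genes that differ in the leader peptide removed on import and encode the same mature protein. In the GENCODE M21 transcripts, their last 75 codons gave 1 and the same translation although 58 of the bases, stop codon included, differed among them (25.4%), 52 of these at the third codon position. The stretches are printed to show how far the genes differ where they encode the same protein. Capitals mark the bases at which the genes differ, and the strand is that of the transcript.
Atp5g1 (chromosome 11): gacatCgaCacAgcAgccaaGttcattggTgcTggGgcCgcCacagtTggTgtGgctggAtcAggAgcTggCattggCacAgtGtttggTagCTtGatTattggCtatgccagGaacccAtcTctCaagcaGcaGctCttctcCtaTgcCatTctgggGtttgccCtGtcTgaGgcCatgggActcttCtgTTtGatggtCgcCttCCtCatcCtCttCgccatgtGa
Atp5g3 (chromosome 2): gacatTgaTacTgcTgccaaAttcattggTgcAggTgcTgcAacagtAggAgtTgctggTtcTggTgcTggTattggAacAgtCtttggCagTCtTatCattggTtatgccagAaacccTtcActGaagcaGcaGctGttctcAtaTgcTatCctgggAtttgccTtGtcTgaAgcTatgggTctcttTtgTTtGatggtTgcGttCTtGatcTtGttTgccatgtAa
Atp5g2 (chromosome 15): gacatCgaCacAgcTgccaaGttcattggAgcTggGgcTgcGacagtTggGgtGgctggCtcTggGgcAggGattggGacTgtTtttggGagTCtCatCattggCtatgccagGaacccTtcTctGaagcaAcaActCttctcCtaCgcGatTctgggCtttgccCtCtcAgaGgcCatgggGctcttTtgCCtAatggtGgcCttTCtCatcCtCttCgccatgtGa

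The 3 genes contributed unequally and in the same order in both libraries. Atp5g1 held 61.7% of c subunit reads in replicate 1 and 58.6% in replicate 2, with Wilson 95% intervals of 58.4 to 65.02% and 54.3 to 62.8%. Atp5g3 held 30.01% and 31.8%, and Atp5g2 held 8.24% and 9.51%. Pooled over libraries, Atp5g1 had 1.97 times the reads of Atp5g3 (exact interval 1.75 to 2.23) and 6.93 times those of Atp5g2 (5.70 to 8.495). Of the Atp5g2 reads, 56.7% in replicate 1 and 44.9% in replicate 2 had no intron. On complete coding reads alone the ratio to Atp5g2 was 14.4 (10.9 to 19.4), while that to Atp5g3 was 1.95 (1.73 to 2.21). The mean levels were 434 RPM for Atp5g1, 223 RPM for Atp5g3 and 63.8 RPM for Atp5g2. Per kb of model length Atp5g3 stood first with 308 RPM per kb, against 159 for Atp5g1 and 140.0 for Atp5g2; the matched models averaged 722 bases for Atp5g3 and 2731 bases for Atp5g1.

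Atp5g1 reads were split between alternative first exons. The chain whose first exon lies at chr11:96075627-96075670 on the minus strand, held 51.2% of the gene's reads in replicate 1 and 49.3% in replicate 2. The chain that begins at chr11:96075557-96075619, held 43.0% and 41.4%. Both chains carry the same coding sequence. The later first exon begins 7 bases after the end of the earlier one, within the first intron of the other chain, and the capitals mark those bases in the RefSeq window (GRCm38.p6, chr11:96075605-96075641, minus strand), which start with the GT of a splice donor.
Atp5g1 between its first exons: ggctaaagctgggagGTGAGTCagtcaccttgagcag

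Complex IV had the widest range of levels. Cox4i1, which encodes subunit IV (chr8:120668222-120674207, plus strand, mm10), had 1919 reads in replicate 1 and 1241 in replicate 2, or 1790 and 1647 RPM. On all of these reads it ranked 27 among all genes and first among members per kb. Models with a complete coding sequence took 787 of its reads in replicate 1 and 522 in replicate 2. Ndufa4, named as a complex I subunit and now placed in complex IV, had 1099 and 975 RPM. Cox8a had 936 and 855 RPM. Cox7a2, Cox6c, Cox6b1, Cox6a1, Cox5b and Cox7c followed between 313 and 548 RPM, and Cox5a and Cox7b were at 239 and 179 RPM on average. Cox7a2l, a factor of respiratory supercomplexes, stood lower at 87.6 ± 3.81 RPM (SD, n = 2).

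In each family of alternative complex IV forms, a single gene held nearly all reads. Cox4i2, a form known from lung, had 2 reads in replicate 1 and 0 in replicate 2, against 3160 reads of Cox4i1 in both. The pooled ratio of Cox4i1 over Cox4i2 was 1580, with an exact interval of 437 to 13052. Cox6b2, known from testis, had 1 read in replicate 1 and 3 in replicate 2, against 511 and 289 of Cox6b1. Cox7a1, known from heart and skeletal muscle, had 5 and 2 reads, against 542 and 445 of Cox7a2. Cox6c2 had 0 and 1 read. Ndufa4l2, a hypoxia-induced paralogue of Ndufa4, had 10 and 5 reads.

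Other forms were not detected. Cox7b2, Cox8b and Cox8c had 0 reads in both libraries, which at 3 reads allows up to 2.80 RPM in replicate 1 and 3.98 RPM in replicate 2. Over both libraries, Cox8a was therefore at least 549-fold higher than Cox8b and Cox8c, and Cox7b at least 111-fold higher than Cox7b2, with a floor of 3 reads over the group.

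Cox6a2, the heart and skeletal muscle form of subunit VIa, was the best-detected minor form. It had 20 reads in replicate 1 and 10 in replicate 2, which was 3.92% and 3.45% of the reads of the Cox6a pair. Of the Cox6a2 reads, 17 in replicate 1 and 5 in replicate 2 were complete coding reads, and 2 and 5 had no intron. Cox6a1 had 467 and 263 complete coding reads. Cox6a1 led by 25.7-fold over both libraries, with an exact interval of 17.8 to 38.3. Of 7 listed muscle markers, 6 had a read, with a summed level of 58.7 RPM in replicate 1 and 50.4 RPM in replicate 2. Most of this sum came from Actn2 with 25 reads in replicate 1 and 10 in replicate 2, Myh7 with 21 and 17, and Acta1 with 13 and 10. Ckm had 1 read in each library, Myl2 2 and 0, Myh6 1 and 0, and Tnnt2 0. The part of muscle RNA in the Cox6a2 reads was not tested.

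**Figure D2:**
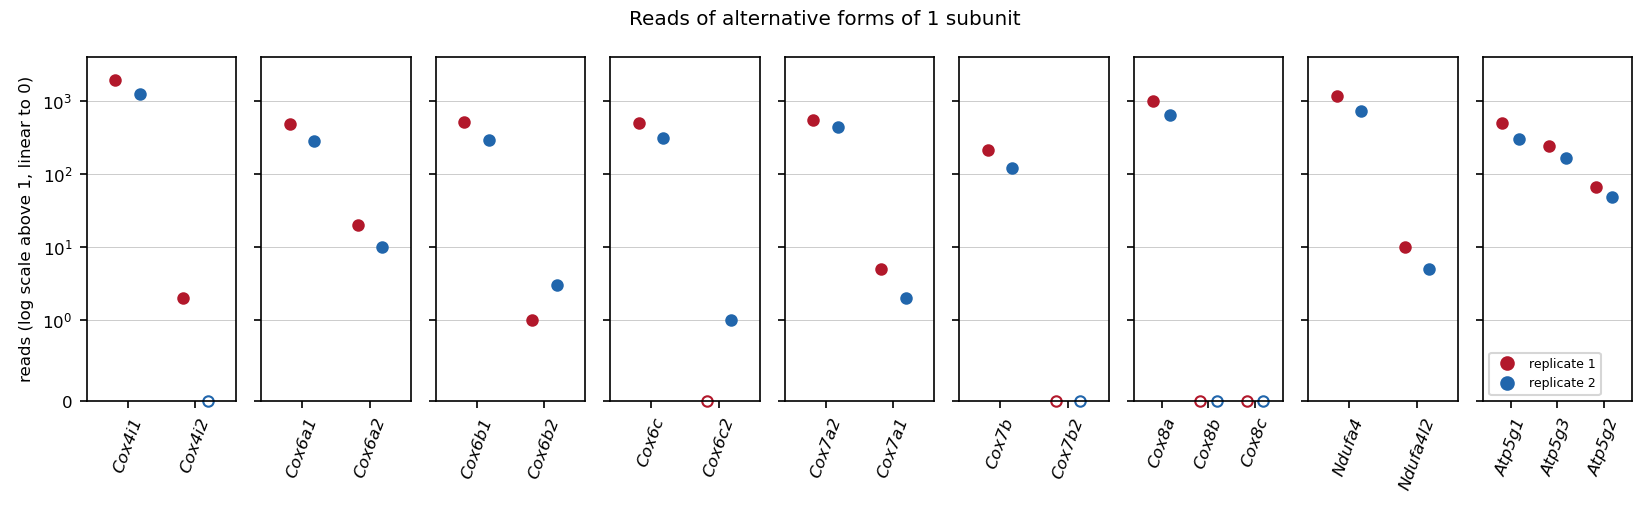
Reads of genes that encode alternative forms of 1 subunit, in replicate 1 (red) and replicate 2 (blue), on an axis that is logarithmic above 1 read and linear below. Open circles are 0 reads. In each complex IV family a single gene stands at 121 reads or more and the others at 20 or fewer, whereas the 3 c subunit genes lie between 49 and 502 reads.

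Complex I subunits were more even. The 36 genes ran from 70.2 RPM for Ndufs5 to 289 RPM for Ndufs1, a 4.12-fold range, or 7.32-fold per kb of model length. The lowest per kb was Ndufb2 with 59.2 RPM per kb, and its matched models averaged 3368 bases. Of the Ndufb2 reads, 32.6% in replicate 1 and 31.9% in replicate 2 were on models without an intron, described below. The 7 core subunits, which carry the flavin and iron-sulphur centres, had a median of 241 RPM, and the 29 accessory subunits a median of 149 RPM. Ndufs1, which holds several iron-sulphur clusters, had 281 RPM in replicate 1 and 297 RPM in replicate 2, and Ndufv1, which binds NADH, had 275 and 295 RPM. Ndufb9, an accessory subunit of the membrane arm, had 306 and 268 RPM. The counting intervals of the replicates overlapped for each of these genes.

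The complex I assembly factors, which help to build the enzyme and leave it, were lower. Their 8 levels had a median of 35.5 RPM and the highest, Ndufaf7, an arginine methyltransferase, had 92.3 RPM in replicate 1 and 107 RPM in replicate 2. Ndufaf4 followed with 55.02 and 65.03 RPM, and Ndufaf3 with 46.6 and 39.8 RPM. Ndufaf6 was the lowest, with 11 reads in replicate 1 and 3 in replicate 2. The 37 assembly genes of the chain that fall outside the naming rule, such as Surf1 and Tmem70, were at a similar median of 42.3 RPM, and all of them had reads in both libraries.

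Complex II was unequal between its subunits. Sdha, the flavoprotein that oxidises succinate, had 505 RPM in replicate 1 and 500.3 RPM in replicate 2. Sdhb, the iron-sulphur subunit, had 365 and 336 RPM. Of the pair of membrane anchors, Sdhd had 183 and 173 RPM while Sdhc had 31.7 and 31.9 RPM. Sdhd thus had 5.76 times the reads of Sdhc in replicate 1 and 5.42 times in replicate 2, and 11.9 times per kb of model length, although the anchors pair in equal numbers in the enzyme.

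Complex III was led by Uqcrc1, a core protein, with 972 RPM in replicate 1 and 884 RPM in replicate 2. Its partner Uqcrc2 had 282 and 279 RPM, a ratio of 3.45 in replicate 1 and 3.17 in replicate 2. Uqcrq, a small subunit, had 517 and 478 RPM. The electron-carrying subunits were close to each other, with 399 and 414 RPM for Cyc1, which holds cytochrome c1, and 340 and 354 RPM for Uqcrfs1, the Rieske iron-sulphur protein. Uqcrh, the hinge protein, was lowest at 75.5 and 65.03 RPM. Cycs had 371 RPM in replicate 1 and 352 RPM in replicate 2.

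The subunits encoded in the mitochondrial genome had few reads in these libraries. Whether their reads follow RNA levels as those of nuclear genes do was not tested. All 13 together took 0.0406% of mouse reads in replicate 1 and 0.0346% in replicate 2, and 12 of the 13 had a read. mt-Co1, the catalytic subunit of complex IV, led with 203 reads in replicate 1 and 115 in replicate 2, or 189 and 153 RPM, close to the median of the nuclear members. The next, mt-Cytb, had 55.02 and 53.1 RPM, and mt-Nd4l had 0 reads. The 10 listed regulators of the nuclear genes had a median of 21.1 RPM; among them, picked after their values were seen, were Esrra at 94.2 and 86.3 RPM, Nrf1 at 23.3 and 17.3 RPM and Gabpa at 14.9 and 22.6 RPM.

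No member differed between the replicates after adjustment. For each of the 11337 genes that reached 10 reads over both libraries, the split of its reads was set against that of all mouse reads (exact binomial test, two-sided, Benjamini-Hochberg adjustment, threshold 0.05). The test weighs counting error between these libraries alone. It called 0 of the 89 members tested, against 100 of all genes (0.882%), of which 59 were higher in replicate 1 (0.52% of the genes tested). At an unadjusted p under 0.05 stood 12 members (13.5%), 11 of them higher in replicate 1, against 8.58% of all genes. Among genes with 100 or more reads, the shares under 0.05 were 15.2% of members and 12.5% of all genes. edgeR's exact test with a common dispersion called 0 members and put none under an unadjusted 0.05, but its dispersion was estimated from these same 2 libraries, so the difference tested is part of the spread it allows for.

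The ratios lay mostly on the same side. The median log2 ratio was 0.12 over the 89 members and 0.00 over all genes, and it was above 0 in 68 members (76.4%), against 50.4% of all genes. Among genes with 100 or more reads the shares were 77.2% of members and 56.8% of all genes. Of the cell type markers tested, all 7 of cortical neurons were also above 0 (0.03 to 0.74, median 0.31), and none was called. The 3 oligodendrocyte markers had a higher median of 0.78, with 2 of them above 0 and called. The median was -0.12 over 2 microglial markers, -0.22 over 3 astrocyte markers, 1 of them above 0, and -0.31 over 3 markers of endothelium and blood. None of these was called, while Ttr of the choroid plexus, at -3.32, was called. The part of any cell type in the members' ratios was not tested. By group, complex IV had a median of 0.18, complex I subunits 0.17, ATP synthase 0.09, complex II 0.05, complex III 0.01 and the assembly factors -0.07. Scaling to ERCC spike-in reads moved every ratio down by 0.25 and the members' median to -0.13, while the median of all genes went to -0.24, so the distance between members and all genes was the same 0.11.

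Atp5a1 had the smallest adjusted p of the members. It had 1421 reads in replicate 1 and 870 in replicate 2, a log2 ratio of 0.20 ± 0.06 (counting SE) with an adjusted p of 0.104 in the exact binomial test. Among members with 50 or more reads, the largest ratios toward replicate 1 were those of Ndufb4, an accessory subunit, with 142 reads in replicate 1 and 69 in replicate 2 (0.53 ± 0.21), of Atp5mpl, a small membrane protein of ATP synthase, with 146 and 72 reads (0.51 ± 0.21), and of Ndufa13, also known as Grim19, with 290 and 160 reads (0.35 ± 0.14). Their adjusted p values in the exact binomial test were 0.331, 0.349 and 0.364. The largest toward replicate 2 were those of Ndufaf5 with 32 and 36 reads (-0.68), Ndufaf4 with 59 and 49 (-0.24) and Cox7a2 with 542 and 445 (-0.22 ± 0.09). Cox7a2 was the member under an unadjusted 0.05 that was higher in replicate 2, with an adjusted p of 0.376 in the same exact test.

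**Figure D3:**
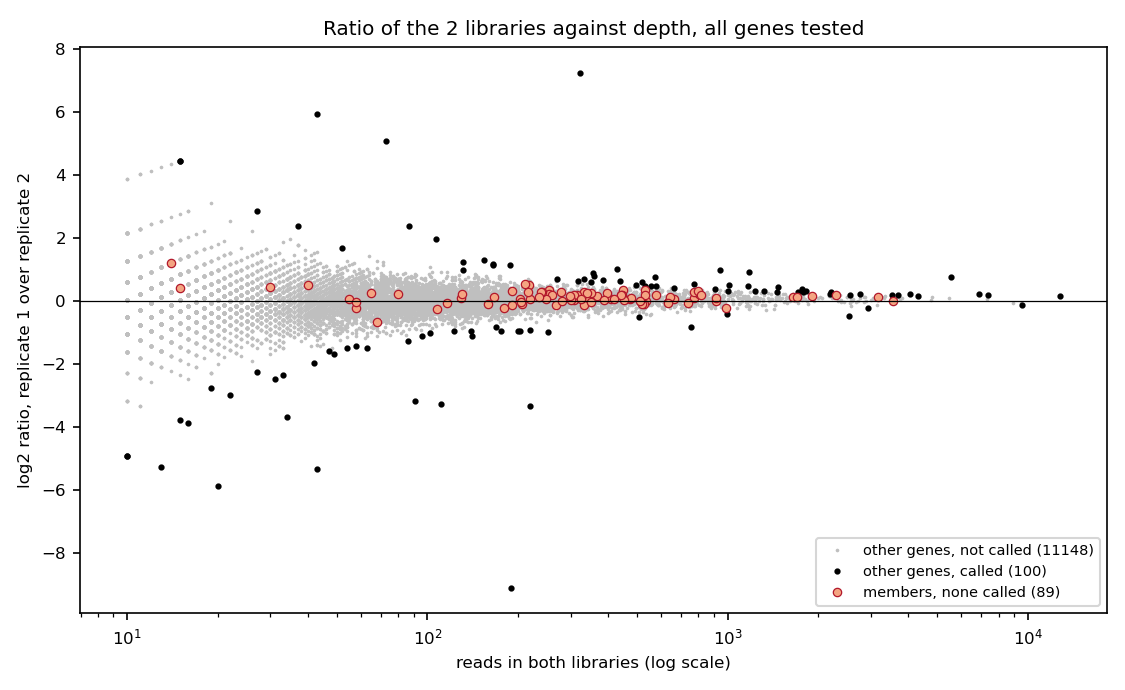
Log2 ratio of replicate 1 over replicate 2 against the reads in both libraries on a log axis, for 11337 genes. The 89 members tested (orange) lie among the genes not called (grey), mostly just above 0, and none is among the 100 genes called (black).

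Most member reads were on models with a complete coding sequence. A model was counted as complete when it held exactly the introns of an annotated complete coding sequence and spanned it. At least 94.47% of complete reads in replicate 1 and 94.54% in replicate 2 were on annotated models, which carry their annotated ends in the tables, so for these the introns were matched but the span of the single read was not measured. By this measure 84.3% of member reads in replicate 1 and 82.9% in replicate 2 were complete. A further 10.7% and 11.4% held only introns of the 3' end of a coding transcript, 2.85% and 3.07% had no intron, and the rest were other chains. Among the 85 members with 20 or more reads in each library the median share of complete reads was 93.6% in replicate 1 and 92.2% in replicate 2, and 51 of the 85 were at 90% or more in both.

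The 3' reads were concentrated in a few genes. Cox4i1, Atp5b, Ndufa4 and Ndufs7 gave 83.8% of them in replicate 1 and 82.8% in replicate 2. Among the same 85 members, the complete share was under 65% in both libraries in 9, 5 of these mainly through models without an intron. The sequences around the first base of the most frequent short model of 5 genes are printed because they show where the deposited model begins; all lie within the coding sequence on mm10, and capitals start at the first base of the short model.
Atp5b (chr10, from 128089041, plus strand): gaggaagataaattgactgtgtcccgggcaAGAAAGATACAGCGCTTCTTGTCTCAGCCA
Ndufa4 (chr6, from 11905262, minus strand): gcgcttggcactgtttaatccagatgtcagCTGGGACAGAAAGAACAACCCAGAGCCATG
Ndufs7 (chr10, from 80255924, plus strand): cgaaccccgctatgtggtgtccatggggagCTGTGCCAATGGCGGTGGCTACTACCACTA
Ndufb3 (chr1, from 58595649, plus strand): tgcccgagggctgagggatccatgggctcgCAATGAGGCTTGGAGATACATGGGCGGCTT
Uqcrq (chr11, from 53429150, minus strand): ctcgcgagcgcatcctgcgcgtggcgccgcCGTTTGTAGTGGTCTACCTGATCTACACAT

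The Atp5b model began within an exon and the other 4 exactly at the first base of an annotated exon. Over all 159 unnamed 3' chains of members, 90 began on such an edge, with 58.2% of their reads. How the deposited start of a model was set from its reads is not given in the sources used here.

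Cox4i1 and Ndufa4, both among the 6 most abundant members, had fewer complete than short reads. In Cox4i1, the complete reads numbered 787 in replicate 1 (41.0%) and 522 in replicate 2 (42.1%). The largest chain was Cox4i1-204, which the annotation types as a retained intron and which has the last introns of the coding transcript, with 57.8% in replicate 1 and 56.5% in replicate 2. In Ndufa4, 46.2% of reads were complete in replicate 1 and 40.4% in replicate 2, and a 2-exon model held 629 and 432 reads. For the same reason the tables do not show how many of the Cox4i1-204 reads hold the intron sequence at its start.

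Atp5b showed a shorter chain at a lower share. Complete reads were 71.6% in replicate 1 and 68.9% in replicate 2, and a 2-exon model that leaves out the first 1371 of 1590 coding bases held 494 and 383 reads. Ndufs7, the core subunit next to the quinone site, had 48.9% and 51.9% complete reads with 113 and 73 on its 2-exon model. In Ndufb3, an accessory subunit, models without an intron over the last exon held 141 reads in replicate 1 (63.5%) and 88 in replicate 2 (67.7%). In Uqcrq such models held 34.8% and 35.8%.

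In 3 further genes the reads without an intron lay at the 3' end. Ndufb2, an accessory subunit, had 74 such reads in replicate 1 and 45 in replicate 2, and the deposited model of these reads begins within the last exon and ends beyond the annotated end of the gene. Atp5g2 had 38 and 22, and Ndufaf7 had 25 and 26. These reads count towards the levels given above, since a gene's level sums all of its models.

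**Figure D4:**
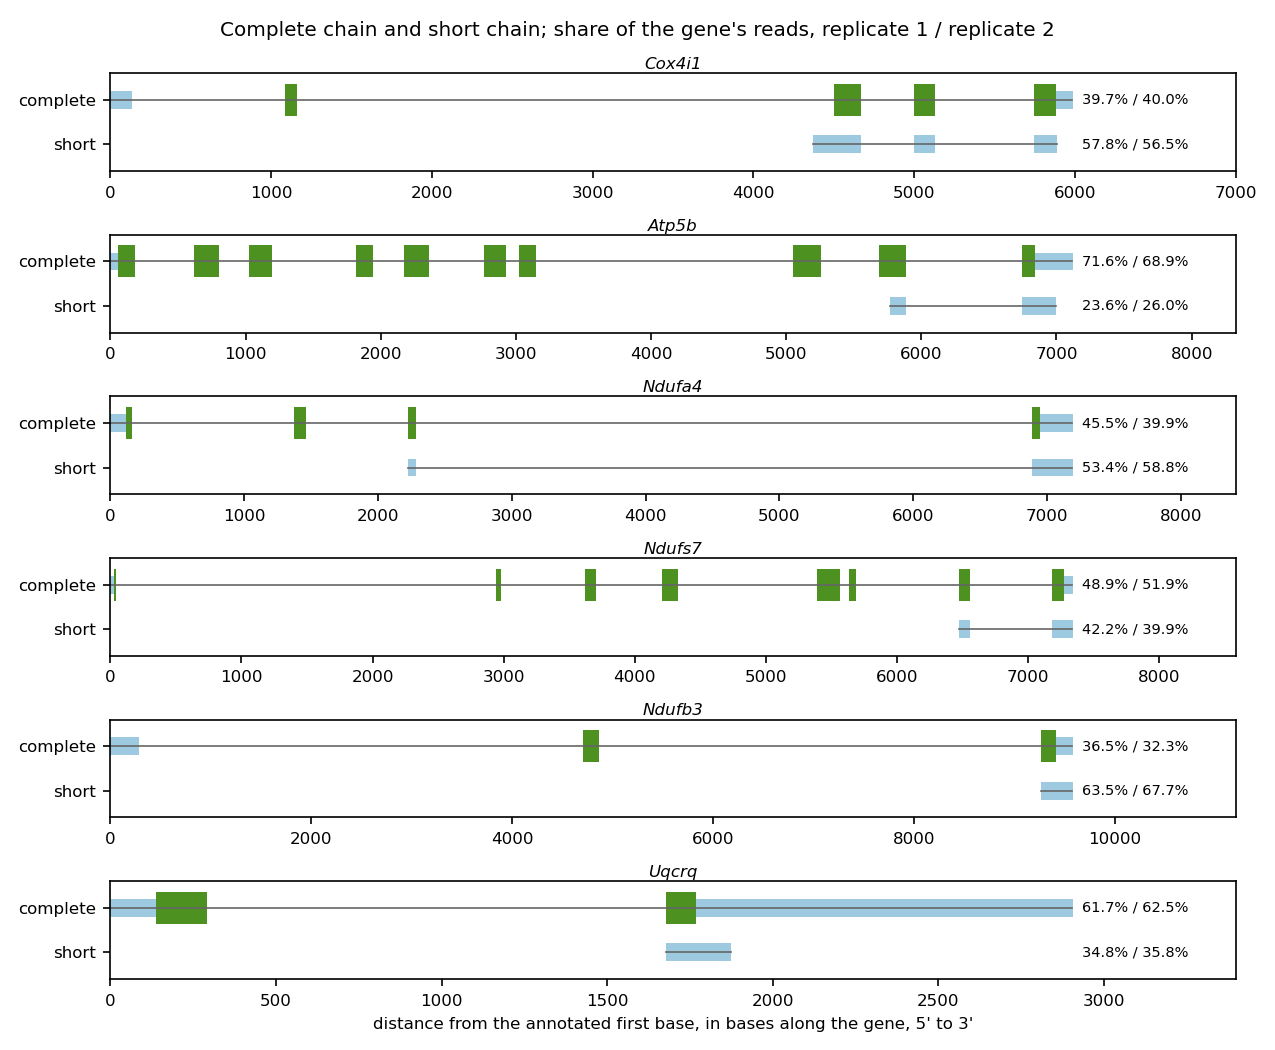
Exons of the complete coding chain and of the most frequent short chain in 6 members, by distance in bases from the annotated first base, with the coding bases of the complete chain in green and all other exon bases, the whole short chain included, in blue. Shares at the right are percent of the gene's reads in replicate 1 and replicate 2; the short chain of Cox4i1 holds 57.8% and 56.5%, that of Atp5b 23.6% and 26.0%.

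**Figure D5:**
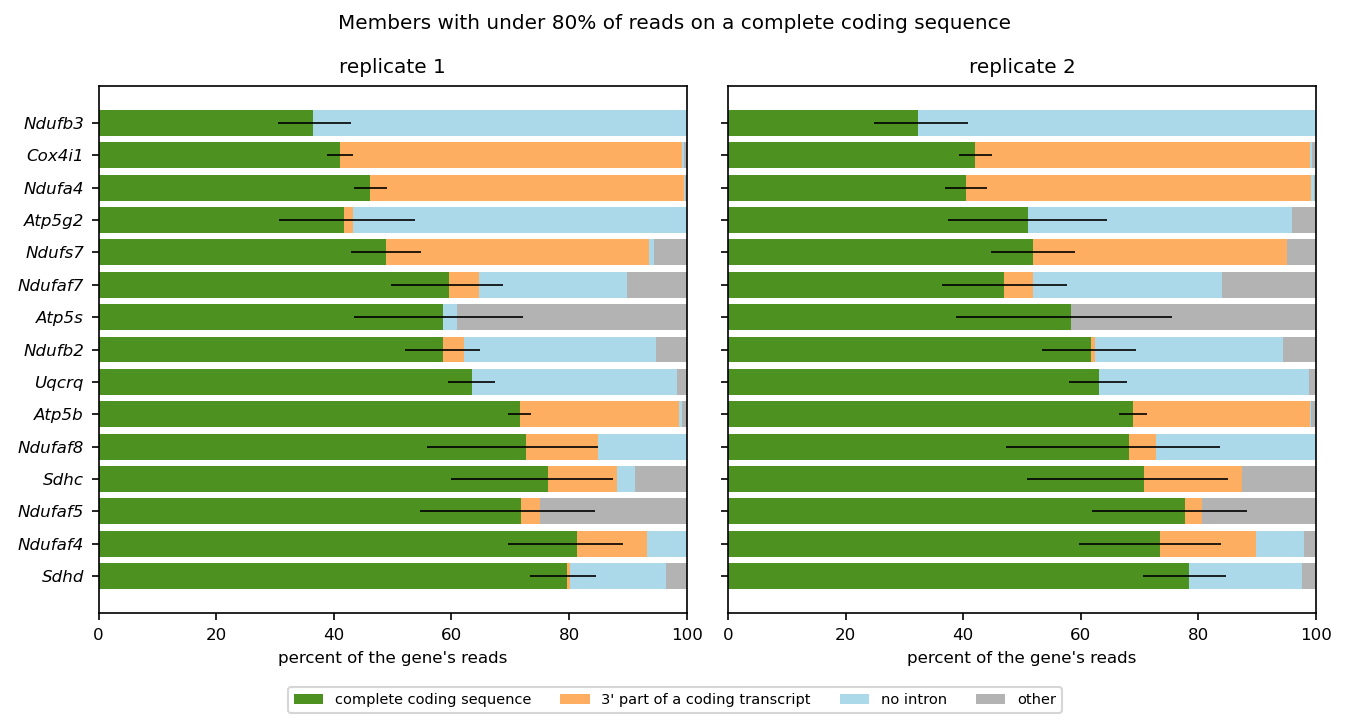
Share of each gene's reads by coding class, for the 15 members with 20 or more reads in each library and a mean of under 80% complete reads, in replicate 1 (left) and replicate 2 (right). Black lines are Wilson 95% intervals of the complete share; Ndufb3, Cox4i1 and Ndufa4 had 32.3% to 46.2% complete reads.

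No member was called for a difference in isoform use between the replicates, in a test that called few genes of any kind. The share of a gene's reads on its most abundant chain was compared by a two-sided Fisher exact test over 6190 genes with 20 or more reads in each library, with Benjamini-Hochberg adjustment. It called 8 genes (0.129%) and 0 of the 85 members. Under an unadjusted p of 0.05 in this test were 3 of the 85 members, against 337 of the 6190 genes. The leading chain held a median of 89.9% of a member's reads in replicate 1 and 88.6% in replicate 2, against 70.6% and 69.1% over all genes tested, and both shares exceeded 80% in 60 of the 85 members (70.6%), against 30.8% of all genes. Ndufv1 had the smallest p, with 264 reads on its leading chain in replicate 1 (89.5%) and 176 in replicate 2 (79.3%), and an adjusted p of 0.342 in Fisher's exact test.

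Where a second spliced chain was common, it mostly kept the protein. The leading chain of Ndufs1 and Ndufs1-203 held 47.2% and 27.2% of reads in replicate 1, and 42.4% and 33.5% in replicate 2, with the same coding sequence. The leading chain of Atp5g3 and Atp5g3-202, whose first introns start 10 bases apart, held 56.1% and 27.9% in replicate 1, and 67.1% and 22.6% in replicate 2. Cox6c-203 held 12.5% and 14.1%, the second chain of Ndufs8 held 14.6% and 16.3%, Ndufb2-202 held 19.4% and 19.1%, and Ndufaf1-203 held 31.3% and 38.5%, each with the coding sequence of the leading chain. Ndufaf4-202, a chain typed as noncoding with the last intron of the coding transcript, had 7 and 8 reads.

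Among complete reads, 71 members showed 1 coding form and 21 showed more than 1, but a minor form at 5% or more in both libraries was seen in 2 members, Ndufa11 and Ndufv3. In Ndufa11, an accessory subunit of the membrane arm, Ndufa11-204 had 8 complete reads in replicate 1 (5.80%) and 9 in replicate 2 (8.82%). A cassette exon with a known tissue pattern lies in Atp5c1. There a 37-base exon at chr2:10056770-10056806 (minus strand, mm10) was included in 473 reads and left out in 23 in replicate 1 (95.4% inclusion, Wilson interval 93.1 to 96.9%), and included in 260 and left out in 19 in replicate 2 (93.2%, 89.6 to 95.6%). In human tissues the corresponding exon is known to be left out in heart and skeletal muscle. When included, the coding sequence ends after its first 7 bases, with a TAA stop, so the exon sets the last residues of the gamma subunit. It is printed after the last 20 bases of the exon before it, in capitals.
Atp5c1 cassette exon: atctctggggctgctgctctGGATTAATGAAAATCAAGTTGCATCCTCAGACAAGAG
In Ndufv3, an accessory subunit next to the NADH site with a short and a long form, a 1092-base exon at chr17:31527310-31528401 was included in 15 reads and left out in 163 in replicate 1 (8.43%, Wilson interval 5.17 to 13.4%), and included in 6 and left out in 105 in replicate 2 (5.41%, 2.50 to 11.3%). The intervals of the replicates overlapped for both exons.

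For 8 members the most abundant chain had no annotated name. In Atp5f1, Ndufa13 and Atp5j it was labelled as an incomplete match but spanned the whole coding sequence: 420 reads in replicate 1 and 272 in replicate 2 for Atp5f1, 281 and 157 for Ndufa13, and 221 and 118 for Atp5j. The Atp5f1 model began 17 bases inside the RefSeq start, and 853 bases inside the nearest GENCODE coding transcript's start, and that of Ndufa13 began 288 bases inside the RefSeq start. In Atp5g2 and Ndufb3 the reads without an intron led, in Ndufa4 the 2-exon model, and in Atp5s and Cox7a1 chains of 16 and 3 reads in all.

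Full chains outside the annotation were many and mostly rare. The members had 511 of them, of which 106 were seen in both libraries in 46 members. Ndufs1 had the most frequent ones, with 30 and 22 reads in replicate 1 and 14 and 16 in replicate 2, both with annotated splice sites in another combination and the full coding sequence. Sdhb had a chain with an intron outside the annotation, chr4:140961477-140966500, in 22 reads in replicate 1 (5.63%) and 16 in replicate 2 (6.32%). Ndufab1, the acyl carrier protein of complex I, had one with the intron chr7:122091068-122091585 in 18 reads (9.38%) and 11 reads (9.40%), with the coding sequence complete. Cyc1 had one with 9 and 10 reads.

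Some of the promoters held short motifs that the naming rule did not use. RefSeq windows (GRCm38.p6) from 250 bases before to 50 bases after the start were found for 75 of the 93 members, 73 by symbol, and for 27025 genes in all. Both strands were searched. The 10-base NRF1 motif, whose matches are shown in capitals at the end of the next paragraph, of a regulator known for respiratory genes, was present in 19 of the 75 (25.3%), against 5.19% of all genes. The YY1 motif AAGATGGC was present in 11 (14.7%), against 3.19%, and an ETS motif CCGGAAGT, of the class that Gabpa binds, in 5 (6.67%), against 4.31%. TATAAA was present in 5 (6.67%), against 15.7%. 1 member, Ndufs6, had both the NRF1 and the YY1 letters, and none had both the ETS and the YY1 letters. In 39 of the 75, none of the 4 motifs was found. These shares describe letters in a window, and the 27025 genes were not matched to the members in level or base composition.

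By group, NRF1 letters were found in 7 of 32 matched complex I subunits, 6 of 15 ATP synthase genes, 2 of 3 complex II genes, 2 of 7 assembly factors, 1 of 5 complex III genes, 1 of 12 complex IV genes and 0 of 1 for Cycs. YY1 letters were found in 7 complex I subunits, 3 ATP synthase genes and 1 assembly factor. Sdha and Ndufb4 had 3 NRF1 matches each, and these are printed, in transcript direction with the match in capitals and named by the distance of its first base from the start.
Sdha at -98 (chr13:74350329-74350338, minus strand): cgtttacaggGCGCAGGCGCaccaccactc
Sdha at -55 (chr13:74350286-74350295, minus strand): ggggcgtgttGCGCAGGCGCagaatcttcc
Sdha at -10 (chr13:74350241-74350250, minus strand): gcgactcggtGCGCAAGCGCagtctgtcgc
Ndufb4 at -191 (chr16:37654550-37654559, minus strand): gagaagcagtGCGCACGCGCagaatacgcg
Ndufb4 at -79 (chr16:37654438-37654447, minus strand): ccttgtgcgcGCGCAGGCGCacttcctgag
Ndufb4 at -22 (chr16:37654381-37654390, minus strand): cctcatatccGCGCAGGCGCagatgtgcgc
Of the 25 distinct matches of the 19 genes, 19 lay wholly before the start.

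Some members overlap other genes. On the same strand, 13 members shared exon positions with reads of another gene, the most in Ndufa13, where reads of neighbours came to 9.66% of its own in replicate 1 and 8.13% in replicate 2, apart from Cox7a1 with its 7 reads. Reads of unannotated antisense loci fell on exons of 36 members, with 104 reads in replicate 1 and 111 in replicate 2 in all. Annotated genes on the opposite strand had reads over exons of 20 members, with 451 reads in replicate 1 and 294 in replicate 2. In 2 members these outnumbered the member's own reads: Impdh2 had 78 and 45 over Ndufaf3, which had 50 and 30, and Shmt2 had 30 and 17 over Ndufa4l2, which had 10 and 5. How strand was assigned is not given in the sources used here, so the levels of these members are uncertain. Levels of small subunits with near-identical processed pseudogenes are uncertain, because every read was assigned to a single gene.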

How the data were processed

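The deposited tables hold raw counts of long reads per transcript model, 1 table per library, listing only models with at least 1 read. Per the file headers, models were built with TALON on mm10 with GENCODE M21; aligner, instrument and versions: not given in the sources used here. Counts were summed per gene over all models and scaled to the mouse reads of the library. Models were matched between libraries by their introns, and models of a gene without an intron form 1 unit. Members and lists were chosen with earlier results of these data known. Named members were, per role, the 3 highest and the lowest, all paralogue families, the 3 largest ratios each way with 50 or more reads, genes with a second chain of 10% or more, and those led by an unannotated chain. Log2 ratios use a pseudocount of 0.5 reads. Tests compare these libraries, since 1 group leaves no contrast between conditions; whether the replicates are separate animals is not fully clear from the labels. Coding classes use GENCODE M21, Wilson and exact intervals are 95% and cover counting error only, as does the floor of 3 reads. Per kb values use the length of the matched model, not of the read. Python 3.11.15, scipy 1.17.1, R 4.3.3, edgeR 4.0.16 and DESeq2 1.42.0 (size factors) were used. Both tests were run on simulated counts drawn with counting error alone, as the tests assume. These runs therefore cannot show how the tests behave with spread between animals. Alternatives were other scalings, model classes, filters and single libraries. SIRV reads were not used. 1 marker gene is not reported here.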

Additional observations from a re-analysis of the deposited data

Results flagged for a closer look

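Ndufb1-ps lies outside the naming rule because of its -ps ending, yet it had reads in both libraries: 94 reads in replicate 1 and 75 reads in replicate 2, or 87.7 and 99.5 RPM. This is far above the 3 reads that a count of 0 allows, and within the range of the complex I subunits. Its leading model, Ndufb1-ps-203, is typed in the annotation as a noncoding RNA of a bidirectional promoter, and took 75 and 57 of these reads. Its log2 ratio of -0.19 was not called (adjusted p = 0.958 in the exact binomial test).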

How the results depend on the processing

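No paired analysis was possible because both libraries belong to 1 group. Members called stayed at 0 with TMM, DESeq2 size factors, annotated transcripts alone, no filter, 50 or more reads and edgeR's exact test. Scaling to ERCC reads called 2 members, Atp5b (log2 -0.25) and Cox7a2 (-0.47), both lower in replicate 1, with 323 genes called, and turned the members' median ratio to -0.13; it shifts all genes by -0.25. Leaving out models of the class Genomic called 176 genes and 1 member, Uqcrq (log2 0.75, adjusted p = 7.9e-09 in the exact binomial test); its reads without an intron (34.8% in replicate 1 and 35.8% in replicate 2) carry the class incomplete match in replicate 1 and Genomic in replicate 2, so this alternative removes them from replicate 2 alone. Annotated transcripts alone called 35 genes with a median member ratio of 0.057, and edgeR's test called 25 genes. The median member level was 218 RPM with annotated transcripts alone and 192 per kb, against 178; a single library gave 166 to 183. In the isoform test annotated transcripts alone called 1 gene. The median share of the leading chain, 89.1%, was 98.7% with annotated transcripts alone, 96.0% without incomplete matches and Genomic models, 90.9% with 50 or more reads in each library, and 88.6 to 89.9% in a single library. The complete coding share, 83.6%, was 82.9 to 84.3% in a single library, and 83.6% without using model ends, an alternative chosen after seeing the data, as was the ratio of Atp5g1 to Atp5g2 on complete coding reads (14.4, against 6.93 on all reads). For 46 named members, 3 of 249 alternative ratios were called (those above), and 29 changed sign, 20 of them under ERCC scaling, which lowers every ratio, and 9 of 207 elsewhere. Of their alternative levels, per kb values included, 138 of 230 stayed within 1 SD of the main value. Of their alternative shares of the leading chain, 123 of 186 did. With annotated transcripts alone, Atp5f1 went from rank 14 among members to 91.5, and Ndufa13 from 32 to 93. Depth limits what can be said of members with under about 50 reads.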

Other observations

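The other electron donors to the chain were measured beside the members; the genes named here were picked from fixed lists after their values were seen. Of 7 listed genes, Gpd2, which feeds electrons from glycerol phosphate, had 71.8 RPM in replicate 1 and 74.3 RPM in replicate 2, Etfa, a subunit of the electron transfer flavoprotein, had 71.8 and 55.7 RPM, Prodh, which oxidises proline, had 59.7 and 55.7 RPM, and Sqor, the sulphide oxidoreductase, had 2 reads and 0 reads. None was called in the exact binomial test. Among the assembly genes outside the rule, Cox14 and Coa3, which act on the newly made catalytic subunit of complex IV, were at 150.1 and 145 RPM in replicate 1 and 173 and 133 RPM in replicate 2, and Tmem70, which acts in assembly of ATP synthase, at 150.1 and 121 RPM, while Timmdc1, a complex I assembly factor, had 6 and 2 reads.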
